A study of Zea mays with 48 samples.

Results

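Transcripts of 4 maize genes of phloem loading were followed through leaf, crown and root under chilling. The genes are the sugar exporters sweet13a (Zm00001d023677), sweet13b (Zm00001d023673) and sweet13c (Zm00001d041067) and the sucrose transporter sut1 (Zm00001d027854). They were taken by their identifiers, and all 4 were present among the 46430 identifiers counted. The count tables carry identifiers without names, so the names rest on the identifiers assigned to these genes in version 4 of the B73 genome.

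The study measured RNA in 48 libraries of seedlings of the inbred line B73 with 3 leaves, from the leaf, the root and 2 parts of the crown, called top and bottom. The crown joins the shoot to the root system. Whole-plant chilling held shoot and root at 4 °C for 24 h. Shoot-only chilling combined a shoot at 4 °C with a root at 26 °C, also for 24 h. Under root-only chilling the root was at 0 °C below a shoot at 26 °C, again for 24 h. Control plants had shoot and root at 26 °C. The chilled root was therefore colder under root-only than under whole-plant chilling. The labels do not say which temperature the crown parts had when shoot and root differed. Each of the 16 groups had 3 libraries, described as biological repeats, and p-values measure the spread between these libraries only.

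Sucrose made in mesophyll cells moves into the bundle sheath and phloem parenchyma of the leaf vein, where SWEET proteins let it pass down its gradient into the cell wall space. SUT1, a proton-coupled symporter, then takes it up into the companion cells and sieve elements of the phloem against the gradient. Maize plants that lack sut1, or all the SWEET13 genes together, grow poorly and build up sugar in their leaves. The sweet13a and sweet13b genes lie close together in the genome, and sweet13c lies on another chromosome. SUT1 is also known in sink organs, where it can retrieve sucrose that has leaked from the phloem.

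Total counts ran from 3449880 to 8633854 per library. Levels are given as CPM, counts relative to the library total, on effective library sizes common to all 48 libraries. The reads come from the 3′ end of transcripts, so counts do not scale with transcript length. Plastid-encoded transcripts, taken as a mark of green tissue, made up 0.00423% to 0.0209% of counts in the 12 leaf libraries, against at most 0.00106% in the 36 others. Normalisation factors were 0.524 to 0.889 in leaf and 0.822 to 1.36 elsewhere, which makes comparisons of leaf with other tissues depend on the scaling. In bulk tissue, fewer cells of a type and less RNA per cell cannot be told apart. The SWEET13 copies are similar in sequence and the handling of shared reads is not known, so the summed counts of the 3 genes were tested as well.

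In control plants the exporters were most abundant in leaf and root and scarce in the crown. sut1 had the most counts of the 4 genes in leaf and in both crown parts, whereas sweet13a had the most in root. sweet13a stood at 177, 260.5 and 194 CPM in leaves, at 1.17, 1.01 and 1.85 CPM in top crowns, at 12.1, 11.5 and 14.4 CPM in bottom crowns and at 229.9, 465 and 619 CPM in roots. sweet13b stood at 61.4, 87.4 and 48.1 CPM in leaves and 20.1, 27.5 and 45.9 CPM in roots, with 1.30 to 2.14 CPM in the 6 crown libraries. Leaf and root libraries overlapped for sweet13a and were apart for sweet13b, and both genes were lower in every crown library than in any leaf or root library.

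sweet13c was the least abundant exporter, at 31.9, 50.6 and 26.3 CPM in control leaves and 3.17, 11.9 and 10.3 CPM in control roots. It had 1.28, 1.76 and 1.50 CPM in control bottom crowns, and only 3, 0 and 1 counts in control top crowns. sut1 stood at 975, 1138 and 1151 CPM in leaves, 21.4, 34.2 and 31.8 CPM in top crowns, 211, 185 and 196 CPM in bottom crowns and 26.0, 31.5 and 16.8 CPM in roots. The bottom crown thus held an intermediate sut1 level, while top crown and root libraries overlapped.

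**Figure D1:**
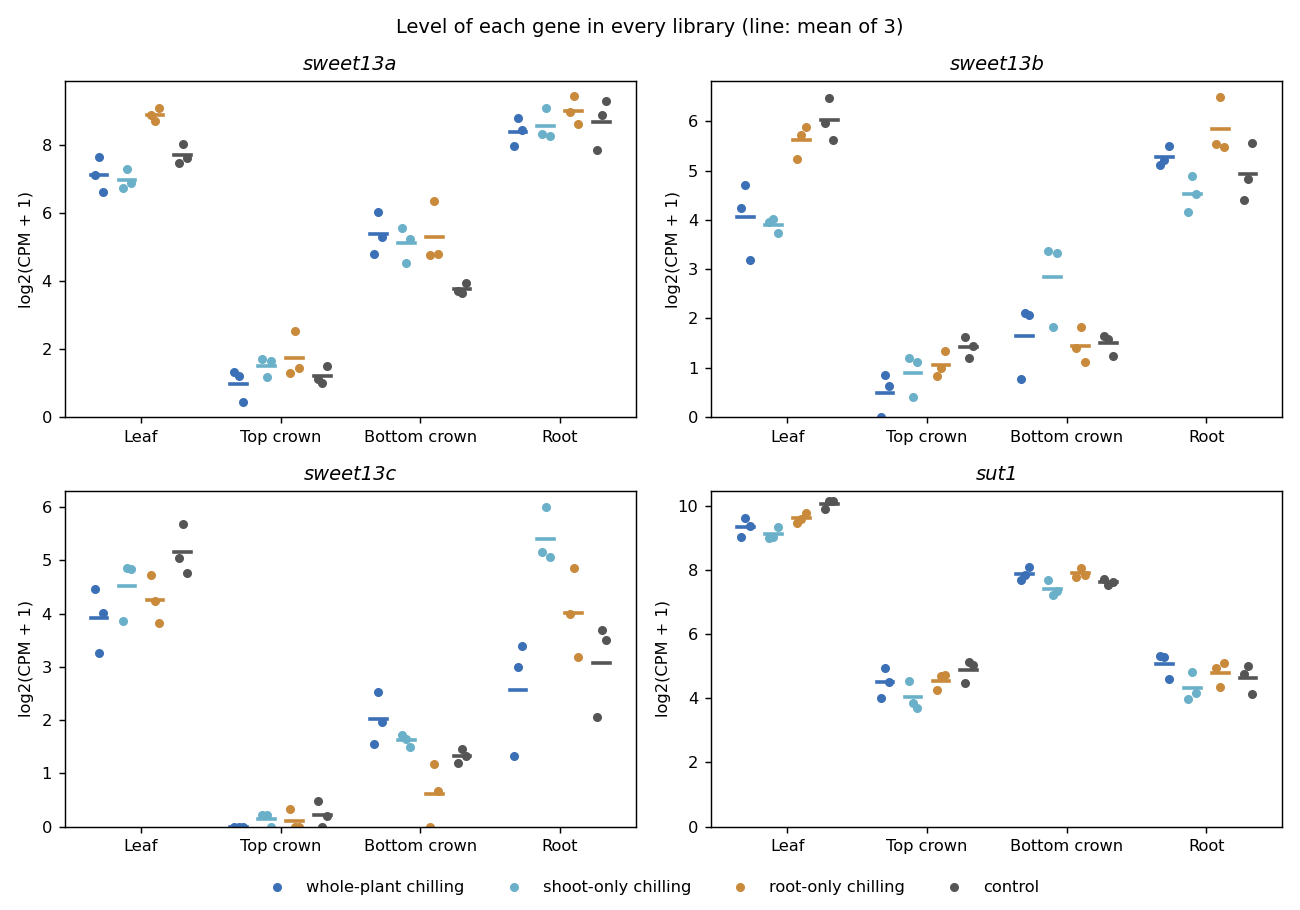
Level of each gene in every library, as log2(CPM + 1), for 4 tissues and 4 conditions. Points are libraries and lines are means of 3. In control plants sut1 averaged 1088 CPM in leaf and 24.7 CPM in root, whereas sweet13a averaged 211 CPM in leaf and 438 CPM in root.

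These differences were tested with edgeR's quasi-likelihood test on all 48 libraries, with Benjamini-Hochberg adjustment over 21720 genes and a threshold of 0.05. All 4 genes differed between leaf and root, where 64.7% of all genes did. sut1 was 43.9-fold higher in leaf than in root (log2 fold change 5.46, SE 0.29, adjusted p = 6.74e-21). sweet13c was also higher in leaf (2.08, SE 0.46, adjusted p = 0.000176), as was sweet13b (1.07, SE 0.36, adjusted p = 0.00858), whereas sweet13a was lower in leaf (-1.06, SE 0.37, adjusted p = 0.0127). With scaling by library size alone, which moved the median of all genes by -1.04, sweet13b came to 0.036 (adjusted p = 0.934), sweet13c to 1.02 (adjusted p = 0.0604), sweet13a to -2.11 and sut1 to 4.39. Single libraries also mattered. The sweet13a call ended without leaf control replicate 1 (-0.90, adjusted p = 0.0692), leaf control replicate 3 (-0.96, adjusted p = 0.0559) or root control replicate 3 (-0.72, adjusted p = 0.112). The sweet13b call ended without leaf control replicate 2 (0.85, adjusted p = 0.0577) or root control replicate 1 (0.84, adjusted p = 0.0605).

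All 4 genes were higher in leaf than in either crown part. Against bottom crown, where 60.6% of all genes differed, the log2 fold changes were 4.05 for sweet13a, 5.14 for sweet13b, 4.55 for sweet13c and 2.46 for sut1, with SE from 0.25 to 0.55 and adjusted p of at most 5.88e-09. Against top crown, where 65.4% of all genes differed, they were 7.27 for sweet13a, 5.25 for sweet13b and 5.22 for sut1, with adjusted p of at most 8.49e-13. sweet13c was called there too (adjusted p = 4.19e-11), but with 4 counts in all in control top crowns the size of its fold is not given. In top crown alone, sweet13b and sweet13c did not pass the filter on low counts. They entered this fit through tissues where they were higher, so their calls against top crown partly follow from the filter. Library size alone made the 7 values given smaller by the general shift, between 1.36 and 6.15, and all stayed past the threshold.

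Against root, top crown was lower in sweet13a (-8.33, SE 0.55) and sweet13b (-4.18, SE 0.46), with adjusted p of at most 3.24e-10, and in sweet13c (adjusted p = 3.87e-07, size not given), where 67.3% of all genes differed. The limit set by the filter on low counts holds here too for sweet13b and sweet13c. sut1 did not differ detectably between top crown and root (0.23, SE 0.25, adjusted p = 0.425). Bottom crown was likewise lower than root in sweet13a (-5.11, SE 0.44), sweet13b (-4.07, SE 0.45) and sweet13c (-2.47, SE 0.56), but higher in sut1 (2.99, SE 0.26), with adjusted p of at most 0.000379 and 51.4% of all genes called. Between the crown parts, where 43.2% of all genes differed, top crown was lower than bottom crown in sweet13a (-3.22, SE 0.54, adjusted p = 6.17e-06) and sut1 (-2.76, SE 0.26, adjusted p = 8.45e-12). sweet13b did not differ detectably (-0.11, SE 0.59, adjusted p = 0.913).

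For sweet13c the difference between top and bottom crown (-2.91, SE 1.03, adjusted p = 0.0209) rested on those few counts, and the fitted value is not a measure of its size. It was lost without top crown control replicate 2 (-2.40, adjusted p = 0.0814), top crown control replicate 3 (-2.77, adjusted p = 0.0609) or bottom crown control replicate 2 (-2.78, adjusted p = 0.0517). Without top crown control replicate 1, which held 3 of the 4 counts, it became -4.04 (adjusted p = 0.0242). Both sweet13b and sweet13c passed the filter on low counts in this fit through other tissues, not through top crown.

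When the whole plant was chilled, sut1 and the exporters sweet13b and sweet13c fell in the leaf. In comparison with control, 3 of the 4 genes were called, where 30.1% of the 15845 genes tested in leaf were. sweet13b, an exporter, had 17.8, 25.3 and 8.16 CPM in whole-plant-chilled leaves, against 61.4, 87.4 and 48.1 CPM in control leaves. Every chilled library was below every control library, and the fall was 3.55-fold (log2 fold change -1.83, SE 0.33, adjusted p = 0.00039).

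The exporter sweet13c had 21.0, 8.55 and 15.2 CPM in whole-plant-chilled leaves, against 31.9, 50.6 and 26.3 CPM in control leaves. The libraries were again apart (-1.18, SE 0.36, adjusted p = 0.0203). The call ended without whole-plant replicate 2 (-0.92, adjusted p = 0.0813) or 3 (-1.16, adjusted p = 0.0665) or without control replicate 2 (-0.85, adjusted p = 0.102). sweet13a, the main exporter by level, had 137, 197 and 97.9 CPM in whole-plant-chilled leaves, against 177, 260.5 and 194 CPM in control leaves. These libraries overlapped and the difference did not pass (-0.44, SE 0.24, adjusted p = 0.195), though it passed without whole-plant replicate 2 (-0.78, adjusted p = 0.0158) or when scaled by library size alone (-0.66, adjusted p = 0.0402), which moved the median of all genes by -0.21.

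The symporter sut1 had 525, 788 and 675 CPM in whole-plant-chilled leaves, against 975, 1138 and 1151 CPM in control leaves. It was lower in all 3 chilled libraries (-0.61, SE 0.18, adjusted p = 0.0148). The call ended without whole-plant replicate 1 (-0.46, adjusted p = 0.0913) or control replicate 3 (-0.57, adjusted p = 0.0542).

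Chilling of the shoot alone, with the root kept warm, lowered sweet13a, sweet13b and sut1 in the leaf. Again 3 of 4 genes were called, where 29.4% of all genes were. sweet13b had 14.6, 15.3 and 12.3 CPM in shoot-only-chilled leaves, all below the control values above, a 4.49-fold fall (-2.17, SE 0.33, adjusted p = 0.000103). sut1 had 519, 529 and 658 CPM in shoot-only-chilled leaves and also lay below every control leaf, 1.85-fold lower (-0.88, SE 0.18, adjusted p = 0.00092).

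sweet13a had 105, 155 and 117 CPM in shoot-only-chilled leaves, again without overlap with control (-0.69, SE 0.25, adjusted p = 0.0404). That call was lost without shoot-only replicate 1 (-0.57, adjusted p = 0.142), shoot-only replicate 3 (-0.66, adjusted p = 0.116), control replicate 2 (-0.48, adjusted p = 0.189) or control replicate 3 (-0.75, adjusted p = 0.0594), and in the fit of all 48 libraries (-0.74, adjusted p = 0.164). sweet13c, at 13.5, 28.1 and 27.5 CPM in shoot-only-chilled leaves, overlapped with control (-0.59, SE 0.34, adjusted p = 0.219).

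When only the root was chilled and the leaf stayed at 26 °C, sweet13a was higher in the leaf than in control leaves, the opposite direction to that under shoot-only chilling. It had 472, 413 and 541 CPM in leaves of root-chilled plants, against 177, 260.5 and 194 CPM in control leaves. All chilled-root libraries were above all controls, a 2.30-fold rise (log2 fold change 1.20, SE 0.24, adjusted p = 0.000486). sweet13c was the other gene called, at 25.4, 18.0 and 13.1 CPM in leaves of root-chilled plants, below control (-0.90, SE 0.34, adjusted p = 0.0377). Thus 2 of 4 genes were called, where 47.1% of all genes were.

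The sweet13c call ended without control replicate 2 (-0.55, adjusted p = 0.217), root-only replicate 2 (-0.86, adjusted p = 0.0971) or root-only replicate 3 (-0.70, adjusted p = 0.128), in the fit of all 48 libraries (-0.93, adjusted p = 0.102), and when scaled by library size alone (-0.46, adjusted p = 0.314). The last scaling moved the median of all genes in this comparison by 0.42. The rise of sweet13a was then 1.62 (adjusted p = 1.96e-05).

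The other genes did not pass in leaves of root-chilled plants. sweet13b had 36.9, 51.4 and 58.1 CPM there and overlapped with control (-0.39, SE 0.29, adjusted p = 0.286), with a value of 0.00477 by library size alone. sut1 had 707, 782 and 876 CPM in leaves of root-chilled plants and lay below the 3 control libraries without passing the threshold (-0.43, SE 0.18, adjusted p = 0.0561). Without control replicate 1 it passed (-0.53, adjusted p = 0.0441), as it did without root-only replicate 3 (-0.52, adjusted p = 0.0441), and when only the 6 libraries compared were fitted (-0.46, adjusted p = 0.0295), but came to -0.02 with library size alone.

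Taken as 1 feature, the 3 exporters averaged 176 ± 54.9 CPM in whole-plant-chilled leaves, 163 ± 33.2 CPM in shoot-only-chilled leaves, 543 ± 65.5 CPM in leaves of root-chilled plants and 313 ± 74.5 CPM in control leaves (SD, n = 3 each). The sum was lower under shoot-only chilling (-0.89, SE 0.24, adjusted p = 0.00824) and whole-plant chilling (-0.72, SE 0.24, adjusted p = 0.0285), and higher under root-only chilling (0.83, SE 0.24, adjusted p = 0.00747). In the fit of all 48 libraries these calls were lost (-0.94, -0.83 and 0.80 in the same order, adjusted p = 0.0579, 0.097 and 0.0793). The shoot-only call was also lost without control replicate 2 (-0.64, adjusted p = 0.0556). The whole-plant call was lost without whole-plant replicate 1 (-0.70, adjusted p = 0.0758) or 3 (-0.49, adjusted p = 0.127), without control replicate 2 (-0.49, adjusted p = 0.144), and with the 6 libraries fitted alone (-0.72, adjusted p = 0.0529).

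The 3 comparisons with control share the same control leaves, so the chilling conditions were also compared directly. Between whole-plant and shoot-only chilling, where the leaf was at 4 °C in both, edgeR's quasi-likelihood test called 0 of 4 genes, with 0 at an unadjusted p under 0.05 and 0 by DESeq2, against 0.0694% of all genes. The log2 differences were 0.26 (SE 0.25) for sweet13a, 0.34 (SE 0.36) for sweet13b, -0.58 (SE 0.37) for sweet13c and 0.27 (SE 0.18) for sut1.

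Against root-only chilling, leaves under either form of shoot chilling had less sweet13a and sweet13b. Whole-plant-chilled leaves were 3.12-fold lower in sweet13a (-1.64, SE 0.25, adjusted p = 1.73e-05) and 2.70-fold lower in sweet13b (-1.43, SE 0.32, adjusted p = 0.00117), making 2 of 4 genes called where 58.0% of all genes were. Shoot-only-chilled leaves were 3.73-fold lower in sweet13a (-1.90, SE 0.25, adjusted p = 3.48e-06) and 3.42-fold lower in sweet13b (-1.77, SE 0.33, adjusted p = 0.000217), with no overlap of libraries in any of the 4 contrasts. These values were larger with library size alone (-2.28 and -2.05, then -2.48 and -2.34).

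sut1 was also lower in shoot-only-chilled leaves than in those of root-chilled plants (-0.45, SE 0.18, adjusted p = 0.0402), making 3 of 4 genes where 58.4% of all genes were called. That call ended in the fit of all 48 libraries (-0.47, adjusted p = 0.101) and without shoot-only replicate 1 (-0.37, adjusted p = 0.153), shoot-only replicate 2 (-0.39, adjusted p = 0.13), root-only replicate 2 (-0.46, adjusted p = 0.0672) or root-only replicate 3 (-0.36, adjusted p = 0.129). Between whole-plant and root-only chilling sut1 did not pass (-0.18, SE 0.18, adjusted p = 0.417), and came to -0.82 (adjusted p = 0.000116) with library size alone, which moved the median of all genes by -0.63. sweet13c passed in neither contrast (-0.28 between whole-plant and root-only, 0.30 between shoot-only and root-only chilling). With library size alone the second of these was -0.30.

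**Figure D2:**
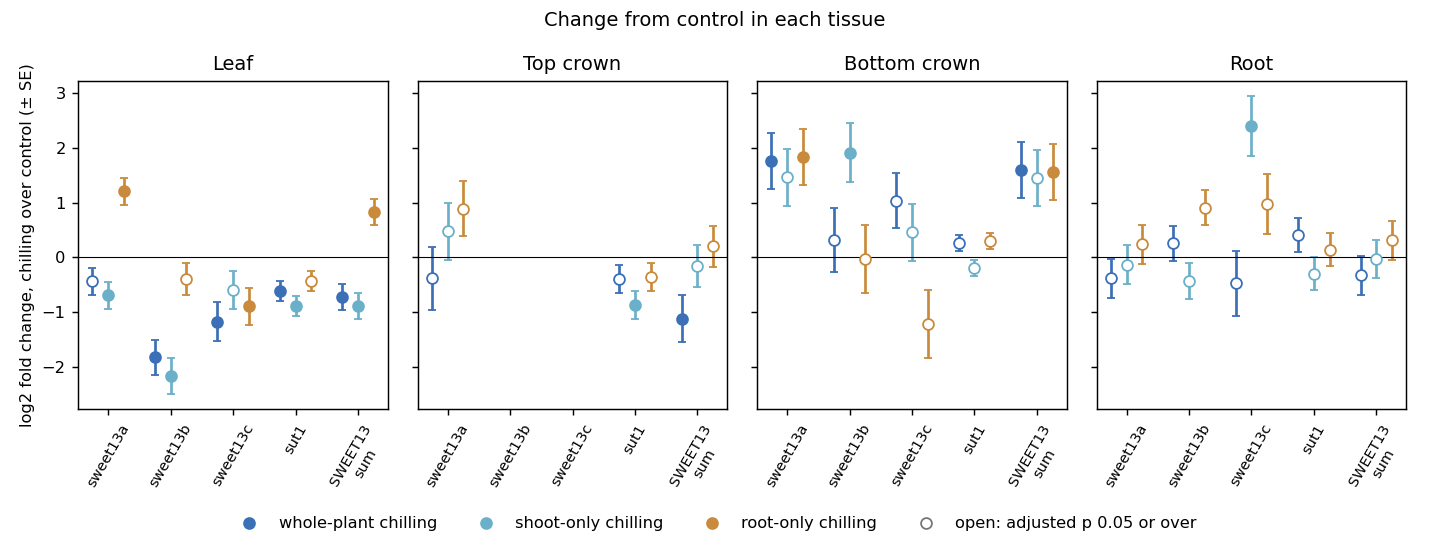
Log2 fold change of chilled over control plants in each tissue for the 4 genes and the summed exporters, with SE. Filled points passed an adjusted p of 0.05 and open points did not. In leaf, sweet13a lies at 1.20 under root-only and -0.69 under shoot-only chilling, and in root sweet13c under shoot-only chilling lies at 2.39. sweet13b and sweet13c in top crown were not tested.

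In the root, sweet13c under shoot-only chilling was the only change from control that passed among the 4 genes. In these roots, which stayed at 26 °C below a chilled shoot, sweet13c had 34.8, 63.6 and 32.3 CPM, against 3.17, 11.9 and 10.3 CPM in control roots. All 3 libraries were above all controls, a 5.26-fold rise (log2 fold change 2.39, SE 0.55, adjusted p = 0.00747). With library size alone it was 2.21 (adjusted p = 0.0198), and it passed without any single library. Thus 1 of 4 genes was called, where 22.3% of the 18831 genes tested in root were.

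sweet13a, the most abundant exporter of the root, did not pass under any chilling. It had 247, 439 and 342 CPM in whole-plant-chilled roots, 316, 544 and 308 CPM in roots of shoot-chilled plants, 498, 687 and 391 CPM in root-only-chilled roots and 229.9, 465 and 619 CPM in control roots. The control replicates spanned nearly the whole range of the chilled ones, and all 4 groups overlapped. Its log2 fold changes over control were -0.38, -0.13 and 0.24 for whole-plant, shoot-only and root-only chilling, each with an SE of 0.35.

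sweet13b had 33.8, 36.0 and 44.1 CPM in whole-plant-chilled roots, 16.9, 28.6 and 21.9 CPM in roots of shoot-chilled plants, 45.5, 89.0 and 43.8 CPM in root-only-chilled roots and 20.1, 27.5 and 45.9 CPM in control roots. Against control none passed, and the largest difference was under root-only chilling (0.91, SE 0.32, adjusted p = 0.113). Same-numbered root libraries of root-only chilling and control deviated together weakly (r = 0.12, 0.237 and 0.101). The root-only difference passed once replicate number entered the fit as a block (0.91, adjusted p = 0.0377). It also passed without control replicate 3 (1.28, adjusted p = 0.0459). By library size alone, sweet13b under whole-plant chilling changed sign (-0.06, against 0.26 with SE 0.32 by the main scaling).

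sut1 was low in all roots, at 23.4 to 39.1 CPM in whole-plant-chilled, 14.7 to 27.1 CPM in shoot-only-chilled, 19.5 to 33.7 CPM in root-only-chilled and 16.8 to 31.5 CPM in control roots. No sut1 difference from control passed (0.40, -0.30 and 0.14 for whole-plant, shoot-only and root-only chilling, SE 0.30 to 0.31). For whole-plant chilling of the root, edgeR's quasi-likelihood test called 0 of 4 genes, with 0 at an unadjusted p under 0.05 and 0 by DESeq2, where 29.3% of all genes were called. For root-only chilling it called 0 of 4, with 1 at an unadjusted p under 0.05 and 0 by DESeq2, where 7.62% were called.

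Between chilling conditions, sweet13c in the root separated shoot-only from whole-plant chilling. It had 1.49, 7.01 and 9.44 CPM in whole-plant-chilled roots, 7.31-fold lower than in roots of shoot-chilled plants (-2.87, SE 0.59, adjusted p = 0.00109), where 51.2% of all genes were called and 1 of the 4. In that contrast sut1 was at 0.70 (SE 0.31, adjusted p = 0.0695) and sweet13b at 0.69 (SE 0.33, adjusted p = 0.0903). sweet13b passed with replicate number entered as a block (0.71, adjusted p = 0.0363) and when the 6 libraries were fitted alone (0.72, adjusted p = 0.0407). Same-numbered libraries of this contrast deviated together weakly (r = 0.213, 0.17 and 0.154). sut1 passed without shoot-only replicate 2 (1.01, adjusted p = 0.0254) or whole-plant replicate 3 (0.92, adjusted p = 0.031), and in the fit of all 48 libraries (0.77, adjusted p = 0.0122).

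Shoot-only against root-only chilling gave 2 of 4 genes, where 37.6% of all genes were called. sweet13b was 2.53-fold lower in roots of shoot-chilled plants than in root-only-chilled roots (-1.34, SE 0.32, adjusted p = 0.00471), without overlap. sweet13c, at 14.9, 27.9 and 8.04 CPM in root-only-chilled roots, was higher when the shoot was chilled (1.43, SE 0.53, adjusted p = 0.0457). That call was lost without root-only replicate 1 (1.32, adjusted p = 0.126), root-only replicate 3 (1.10, adjusted p = 0.152), shoot-only replicate 1 (1.57, adjusted p = 0.0508), shoot-only replicate 2 (1.06, adjusted p = 0.184) or shoot-only replicate 3 (1.62, adjusted p = 0.0546), and when scaled by library size alone (1.16, adjusted p = 0.138) or no filter on low counts (1.44, adjusted p = 0.155).

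Whole-plant against root-only chilling of the root, at 4 °C and 0 °C, gave 0 of 4 genes by edgeR's quasi-likelihood test, with 1 at an unadjusted p under 0.05 and 0 by DESeq2, where 14.0% of all genes were called. sweet13c had the largest difference (-1.44, SE 0.58, adjusted p = 0.118), which passed in the fit of all 48 libraries (-1.43, adjusted p = 0.0307). sweet13b was at -0.65 (SE 0.32, adjusted p = 0.198) and passed with library size alone (-1.07, adjusted p = 0.0429), which moved the median of all genes by -0.40.

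In the bottom crown sweet13a was higher than in control under every form of chilling, and passed the threshold under 2 of them. It had 26.8, 64.3 and 37.9 CPM under whole-plant, 46.2, 21.9 and 36.7 CPM under shoot-only and 26.1, 80.5 and 26.9 CPM under root-only chilling, against 12.1, 11.5 and 14.4 CPM in control. All 9 chilled libraries were above the 3 control libraries. The log2 fold changes were 1.75 for whole-plant (SE 0.51, adjusted p = 0.025), 1.46 for shoot-only (SE 0.52, adjusted p = 0.0639) and 1.83 for root-only chilling (SE 0.51, adjusted p = 0.0189). As the conditions share the control libraries, the 3 values are not independent of each other.

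The chilled replicates differed widely. Under root-only chilling replicate 2 was far above the others, and without it the difference was 1.08 (adjusted p = 0.0416). The root-only call ended without control replicate 1 (1.79, adjusted p = 0.0577) or control replicate 2 (1.76, adjusted p = 0.065). The whole-plant call ended without whole-plant replicate 2 (1.36, adjusted p = 0.0753) or control replicate 1, 2 or 3 (1.72, 1.68 and 1.86, adjusted p = 0.0746, 0.0817 and 0.0558), and with no filter on low counts (1.76, adjusted p = 0.052). The shoot-only difference passed with DESeq2 (1.46, adjusted p = 0.0252), in the fit of all 48 libraries (1.46, adjusted p = 0.0096) and with the 6 libraries alone (1.44, adjusted p = 0.0018).

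sweet13b had 9.35, 2.56 and 9.03 CPM in bottom crowns under shoot-only chilling, against 2.14, 2.01 and 1.37 CPM in control. The lowest chilled library lay just above the highest control, and the rise passed (1.91, SE 0.54, adjusted p = 0.0177). It was lost without shoot-only replicate 1 (1.63, adjusted p = 0.0706), shoot-only replicate 3 (1.69, adjusted p = 0.0673), control replicate 2 (1.99, adjusted p = 0.0516) or control replicate 3 (1.74, adjusted p = 0.0754). Under whole-plant and root-only chilling sweet13b stood at 0.704 to 3.29 and 1.17 to 2.53 CPM, overlapping with control.

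sweet13c averaged 3.20 CPM under whole-plant, 2.08 CPM under shoot-only and 0.617 CPM under root-only chilling, against 1.51 CPM in control bottom crowns. The libraries were apart from control in each case, on 0 to 32 counts a library, but no difference passed (1.04, 0.45 and -1.21 in the same order, SE 0.50 to 0.63). It had 0, 8 and 4 counts under root-only chilling, and the difference passed without the replicate with 8 (-2.17, adjusted p = 0.0409). sut1 had 208, 230.5 and 272 CPM under whole-plant, 206, 149.8 and 163 CPM under shoot-only and 221, 269 and 231 CPM under root-only chilling, against 211, 185 and 196 CPM in control. The libraries under root-only chilling lay above control and the others overlapped with it, and none of these differences passed (0.26, -0.19 and 0.30 in the same order, each with an SE of 0.15). In each of the 3 comparisons with control 1 of 4 genes was called, where 35.0%, 26.2% and 39.4% of the 18779 genes tested were called for whole-plant, shoot-only and root-only chilling.

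In the direct comparisons of the bottom crown, sut1 was higher under whole-plant than shoot-only chilling (0.45, SE 0.15, adjusted p = 0.0239) and lower with the shoot than with the root chilled (-0.49, SE 0.15, adjusted p = 0.0187), both without overlap of libraries. The first call ended without whole-plant replicate 3 (0.34, adjusted p = 0.107), shoot-only replicate 2 (0.35, adjusted p = 0.0815) or shoot-only replicate 3 (0.41, adjusted p = 0.0868), and with the 6 libraries alone (0.46, adjusted p = 0.0625). The second ended without root-only replicate 2 (-0.40, adjusted p = 0.0859), shoot-only replicate 2 (-0.39, adjusted p = 0.065) or shoot-only replicate 3 (-0.45, adjusted p = 0.0748). Both were lost in the fit of all 48 libraries (0.46 and -0.48, adjusted p = 0.146 and 0.142).

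sweet13b was lower under whole-plant than shoot-only chilling (-1.59, SE 0.53, adjusted p = 0.0269), with overlapping libraries, and shoot-only exceeded root-only chilling (1.94, SE 0.55, adjusted p = 0.0147). The first ended without whole-plant replicate 1 (-1.09, adjusted p = 0.0803), shoot-only replicate 1 (-1.31, adjusted p = 0.105) or shoot-only replicate 3 (-1.36, adjusted p = 0.096), and with the 6 libraries alone (-1.59, adjusted p = 0.0796). The second ended without shoot-only replicate 1 (1.66, adjusted p = 0.0588), shoot-only replicate 3 (1.71, adjusted p = 0.0566) or root-only replicate 3 (1.70, adjusted p = 0.058).

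sweet13c, at 1.91, 4.78 and 2.89 CPM under whole-plant chilling, was higher there than under root-only chilling (2.25, SE 0.58, adjusted p = 0.0109). That value became 3.20 without root-only replicate 2, and the call ended without whole-plant replicate 2 (1.85, adjusted p = 0.0531). It was also higher under shoot-only, at 2.30, 2.13 and 1.81 CPM, than under root-only chilling (1.67, SE 0.61, adjusted p = 0.0457). Without shoot-only replicate 1, 2 or 3 the shoot-only difference was 1.59, 1.66 and 1.75 (adjusted p = 0.103, 0.0756 and 0.0737), without root-only replicate 1 or 3 it was 1.16 and 1.61 (adjusted p = 0.118 and 0.103), and without root-only replicate 2 it was 2.62 (adjusted p = 0.0186). It was also lost in the fit of all 48 libraries (1.67, adjusted p = 0.13) and with the 6 libraries alone (1.68, adjusted p = 0.0636). Under root-only chilling sweet13c had at most 8 counts a library, below the filter's minimum of 10. It passed the filter through the other groups, so both calls partly follow from the filter and neither value measures size. Between whole-plant and shoot-only chilling sweet13c did not pass (0.58, SE 0.49, adjusted p = 0.368), and sweet13a passed in none of the 3 contrasts. Genes called were 2 of 4 for whole-plant against shoot-only, 1 of 4 for whole-plant against root-only and 3 of 4 for shoot-only against root-only chilling, where 39.6%, 23.7% and 34.1% of all genes were called.

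In the top crown the exporters were close to the limit of detection. Only sweet13a and sut1 passed the filter on low counts among the 17706 genes tested, so sweet13b and sweet13c were not tested there. sweet13a had 2 to 24 counts in every one of the 12 libraries. sweet13b had 0, 5 and 3 counts in top crowns under whole-plant, 8, 2 and 6 under shoot-only and 6, 5 and 10 under root-only chilling, against 16, 9 and 12 counts in control. sweet13c had 0 counts in all 3 libraries under whole-plant chilling, 1, 1 and 0 under shoot-only and 2, 0 and 0 under root-only chilling, against 3, 0 and 1 in control. A count of 0 allows up to 3 counts in a library by counting error alone, so the sweet13c groups could not be told apart at this depth.

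sut1 was lower than control in top crowns under shoot-only chilling. It had 22.1, 13.5 and 12.1 CPM there, from 136, 85 and 63 counts, against 21.4, 34.2 and 31.8 CPM in control. The highest chilled library was above the lowest control, and the fall passed (-0.87, SE 0.26, adjusted p = 0.0234). It was lost without shoot-only replicate 2 (-0.74, adjusted p = 0.0854), shoot-only replicate 3 (-0.70, adjusted p = 0.106), control replicate 2 (-0.74, adjusted p = 0.0816) or control replicate 3 (-0.80, adjusted p = 0.0783). Thus 1 of 2 tested genes was called, where 23.9% of all genes were.

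Under whole-plant chilling sut1 had 15.0, 30.2 and 22.1 CPM in top crown, and under root-only chilling 18.1, 24.7 and 25.5 CPM. Both overlapped with control (-0.40 and -0.36, each with an SE of 0.25). sweet13a differed from control by -0.38 under whole-plant, 0.48 under shoot-only and 0.89 under root-only chilling, with SE of 0.50 to 0.58. For both whole-plant and root-only chilling against control, 0 of 2 genes were called by edgeR's quasi-likelihood test, with 0 at an unadjusted p under 0.05 and 0 by DESeq2, where 36.2% and 35.9% of all genes were called.

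The direct comparisons in top crown called 0 of 2 genes in each case by edgeR's quasi-likelihood test and by DESeq2, where 25.8% of all genes were called for whole-plant against shoot-only, 26.9% for whole-plant against root-only and 23.2% for shoot-only against root-only chilling. At an unadjusted p under 0.05 there was 1 gene, sweet13a for whole-plant against root-only chilling (-1.27, SE 0.54, adjusted p = 0.0904), which passed without root-only replicate 1 (-1.58, adjusted p = 0.0488). sut1 for shoot-only against root-only chilling was at -0.51 (SE 0.27, adjusted p = 0.188) and passed without shoot-only replicate 1 (-0.82, adjusted p = 0.0464).

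Whether leaf and root responded differently was tested in 1 fit of all libraries, as the change from control in leaf minus that in root. Leaf and root libraries were treated as independent, and the labels do not say whether they came from the same plants. For whole-plant chilling, where both organs were at 4 °C, the leaf change was lower for sweet13b (-2.22, SE 0.53, adjusted p = 0.00311) and sut1 (-1.15, SE 0.35, adjusted p = 0.0227), making 2 of 4 genes where 12.8% of all genes were called. For shoot-only chilling it was lower for sweet13b (-1.75, SE 0.53, adjusted p = 0.0143) and sweet13c (-3.00, SE 0.64, adjusted p = 0.000511), again 2 of 4 where 22.6% were called. For root-only chilling it was lower for sweet13b (-1.36, SE 0.49, adjusted p = 0.035) and sweet13c (-1.92, SE 0.63, adjusted p = 0.0196), 2 of 4 where 28.6% were called. sweet13a passed in none of the 3 (-0.19, -0.57 and 0.91, SE 0.52), and the first of these came to 0.0193 with library size alone.

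Of these 6 differences, those of sweet13b under whole-plant and sweet13c under shoot-only chilling passed without any single library. The sut1 difference under whole-plant chilling ended without leaf control replicate 2 or 3 (-1.06 and -1.05, adjusted p = 0.0618 and 0.0628), leaf whole-plant replicate 1 or 3 (-0.95 and -1.10, adjusted p = 0.0917 and 0.0517), root control replicate 3 (-0.93, adjusted p = 0.0933) or root whole-plant replicate 1 or 2 (-1.03 and -1.04, adjusted p = 0.0608 and 0.0561). That of sweet13b under shoot-only chilling ended without leaf control replicate 2 (-1.46, adjusted p = 0.0582). That of sweet13b under root-only chilling ended without leaf control replicate 2 (-1.11, adjusted p = 0.117), leaf root-only replicate 1 (-1.19, adjusted p = 0.0925), root control replicate 1 or 2 (-1.12 and -1.27, adjusted p = 0.103 and 0.0733) or root root-only replicate 2 (-0.95, adjusted p = 0.165). That of sweet13c under root-only chilling ended without leaf control replicate 2 (-1.62, adjusted p = 0.0686), leaf root-only replicate 3 (-1.72, adjusted p = 0.0545), root control replicate 1 (-1.53, adjusted p = 0.065) or root root-only replicate 2 (-1.35, adjusted p = 0.115). With library size alone the whole-plant difference of sut1 (-0.89, adjusted p = 0.08) and the root-only differences of sweet13b (-1.01, adjusted p = 0.124) and sweet13c (-1.52, adjusted p = 0.0915) were also lost.

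The change from control in top crown minus that in bottom crown can be read for sweet13a and sut1 only, since sweet13b and sweet13c had too few counts in top crown. For these, 0 of 2 genes passed in each of the 3 chilling conditions, by edgeR's quasi-likelihood test and by DESeq2, where 0.304%, 0.0230% and 1.62% of all genes passed for whole-plant, shoot-only and root-only chilling. At an unadjusted p under 0.05 there was 1 gene, sweet13a under whole-plant chilling (-2.10, SE 0.88, adjusted p = 0.473), with as few as 2 counts in a top crown library.

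The make-up of the exporter counts was also described, which needs no scaling between libraries. It depends on how reads shared by the similar copies were divided, which is not known. Differences in the shares were not tested. sweet13a made up 81.3 ± 3.76% of SWEET13 counts in whole-plant-chilled leaves, 77.2 ± 2.31% in shoot-only-chilled leaves and 87.4 ± 1.59% in leaves of root-chilled plants, against 67.7 ± 3.95% in control leaves (SD, n = 3 each). sweet13b made up 9.27 ± 2.23%, 8.82 ± 1.83% and 9.02 ± 1.93% in the same groups, against 20.9 ± 2.56% in control leaves. The ranges of each of the 3 groups were apart from control for both genes. The sweet13b share was smaller in all 3, although its level was called lower in only 2 of them. A share also falls when another copy rises. In leaves of root-chilled plants sweet13b averaged 48.8 CPM, against 65.7 CPM in control, and sweet13a averaged 476 CPM, against 211 CPM.

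In root, sweet13c made up 9.47 ± 0.539% of SWEET13 counts under shoot-only chilling, against 1.46 ± 0.929% under whole-plant chilling, 2.65 ± 0.829% under root-only chilling and 1.71 ± 0.574% in control (SD, n = 3 each). The 3 libraries under shoot-only chilling ran from 8.92% to 10.0%, and no other root library was above 3.47%. In bottom crown sweet13a made up 88.7 ± 2.49%, 79.8 ± 2.58% and 94.5 ± 0.892% under whole-plant, shoot-only and root-only chilling, against 78.8 ± 4.13% in control. In top crown the shares rest on 5 to 29 counts a library and are not read further.

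**Figure D3:**
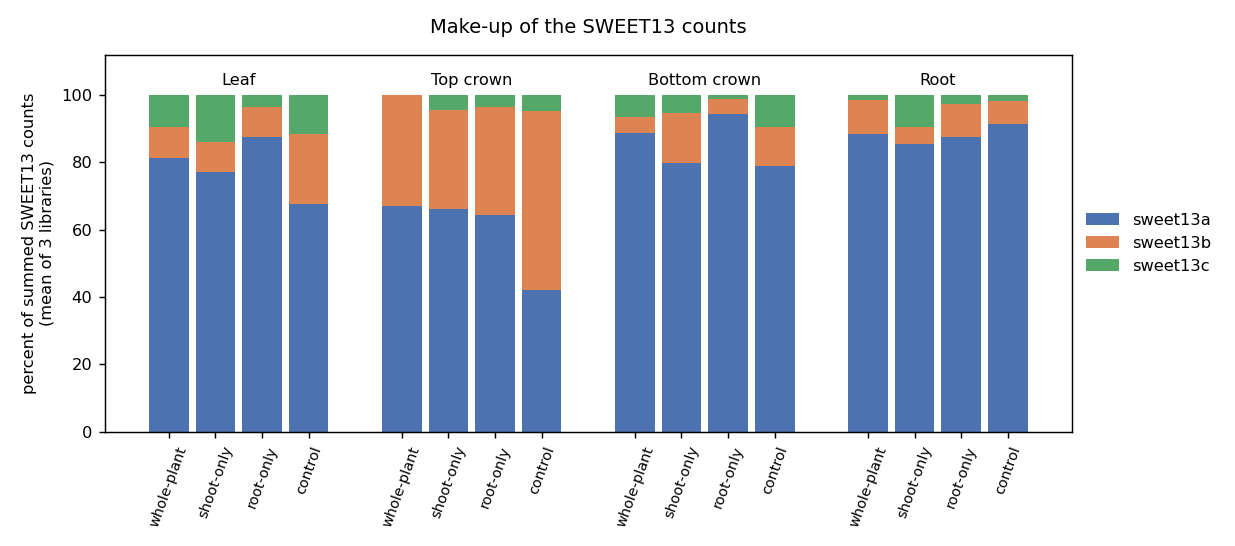
Percent of the summed SWEET13 counts that came from each exporter, as the mean of 3 libraries per group, for 4 tissues and 4 conditions. In leaf the sweet13b share is 8.82% to 9.27% in plants under the 3 forms of chilling and 20.9% in control, and in root sweet13c reaches 9.47% under shoot-only chilling.

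Every root library had fewer sut1 counts per exporter count, at most 0.138, than any library of the other tissues, at least 1.32. Counts of sut1 per SWEET13 count averaged 3.99 ± 1.38, 3.59 ± 0.817 and 1.46 ± 0.151 in leaves under whole-plant, shoot-only and root-only chilling, against 3.58 ± 0.717 in control leaves (SD, n = 3 each). The 3 leaf libraries of root-chilled plants, at 1.32 to 1.62, lay below all other leaf libraries. In bottom crown the ratio was 5.48 ± 2.04, 4.21 ± 1.24 and 6.40 ± 2.78, against 12.4 ± 1.12 in control, with every chilled library below every control library. In root it was 0.0923 ± 0.0413, 0.0432 ± 0.00353 and 0.0513 ± 0.0259, against 0.0633 ± 0.0388 in control, and these ranges overlapped.

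**Figure D4:**
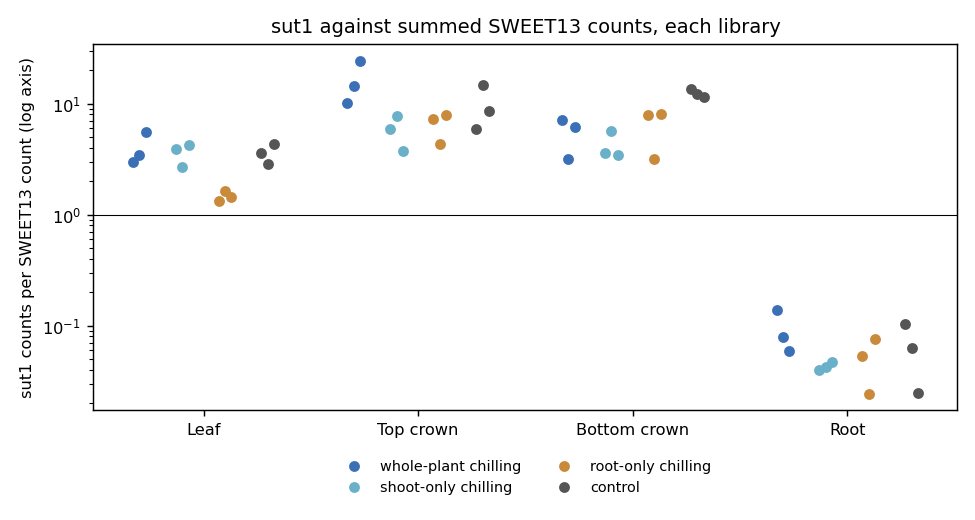
Counts of sut1 per count of the 3 SWEET13 genes in every library, on a log axis, by tissue and condition. The line marks equal counts. Leaves of root-chilled plants sit at 1.32 to 1.62, below the other leaf groups, and the highest root library sits at 0.138.

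In bottom crown the summed exporters averaged 48.6 ± 21.8 CPM under whole-plant, 44.0 ± 15.9 CPM under shoot-only and 46.9 ± 32.4 CPM under root-only chilling, against 15.5, 15.2 and 17.2 CPM in the 3 control libraries (SD, n = 3 for each chilled group). The sum passed under whole-plant (1.59, SE 0.51, adjusted p = 0.0361) and root-only chilling (1.56, SE 0.51, adjusted p = 0.0352) but missed the threshold for the shoot-only form (1.46, SE 0.51, adjusted p = 0.0628). The whole-plant call ended without control replicate 1, 2 or 3 (1.56, 1.55 and 1.65, adjusted p = 0.0958, 0.101 and 0.0812), whole-plant replicate 2 (1.20, adjusted p = 0.109) or whole-plant replicate 3 (1.65, adjusted p = 0.064). The root-only call ended without control replicate 1, 2 or 3 (1.54, 1.53 and 1.63, adjusted p = 0.0905, 0.0979 and 0.0792) or root-only replicate 2 (0.83, adjusted p = 0.11). Both ended with no filter on low counts (1.60 and 1.54, adjusted p = 0.0706 and 0.0734). The shoot-only sum passed without shoot-only replicate 2 (1.73, adjusted p = 0.0486), with DESeq2 (1.45, adjusted p = 0.025), in the fit of all 48 libraries (1.45, adjusted p = 0.007) and with the 6 libraries alone (1.43, adjusted p = 0.00244).

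The summed exporters of the top crown averaged 1.49 ± 0.59 CPM with the whole plant chilled, against 3.21 ± 0.78 CPM in control (SD, n = 3 each), and were lower without overlap (-1.12, SE 0.43, adjusted p = 0.0475). The sum rested on 8, 13 and 5 counts under whole-plant chilling, against 28, 16 and 26 in control. The libraries with 8 and 5 counts lay below the filter's minimum of 10. The sum passed the filter through other groups, so the call partly follows from the filter and the value does not measure size. This call ended without whole-plant replicate 1 (-1.10, adjusted p = 0.106), whole-plant replicate 3 (-0.85, adjusted p = 0.182), control replicate 1 (-1.01, adjusted p = 0.128) or control replicate 3 (-1.01, adjusted p = 0.117). It also ended with DESeq2 (-1.10, adjusted p = 0.0684), median-of-ratios size factors (-1.08, adjusted p = 0.053) and the fit of all 48 libraries (-1.08, adjusted p = 0.208). In root no change of the sum from control passed (-0.33, -0.03 and 0.31 for whole-plant, shoot-only and root-only chilling, SE 0.35).

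Set in order of their group means over all 16 groups, sweet13a ran from 525 CPM in root-only-chilled roots to 1.04 CPM in whole-plant-chilled top crowns. Each of the 8 root and leaf groups overlapped with its neighbour in that order, as did the 3 chilled bottom crown groups, and breaks between neighbours lay between leaf and bottom crown, chilled and control bottom crown, and bottom and top crown. sweet13b ran from 65.7 CPM in control leaves to 0.448 CPM in whole-plant-chilled top crowns, with 1 break, between the leaf and root groups and the crown groups. sweet13c ran from 43.6 CPM in roots under shoot-only chilling to 0 in whole-plant-chilled top crowns, and neighbours overlapped throughout except on either side of control bottom crown, at 1.51 CPM. sut1 ran from 1088 CPM in control leaves to 15.9 CPM in shoot-only-chilled top crowns, with breaks after control leaf, after the leaf groups and after the bottom crown groups.

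The genes whose pattern was most like each of the 4 were found by Pearson's r of log2 CPM over the 16 group means, among 21720 genes. This is a description, in which all genes share the same libraries and the large differences between tissues. For sweet13a these were Zm00001d038936 (r = 0.983) and Zm00001d008200 (r = 0.98). For sweet13b they were Zm00001d018790 (r = 0.958) and Zm00001d037321 (r = 0.953), and for sweet13c Zm00001d020902 and Zm00001d037417 (both r = 0.966). For sut1 they were Zm00001d005973 (r = 0.982) and Zm00001d011845 (r = 0.979). Zm00001d005973 was near the limit of detection, from 0 CPM in control top crowns to 7.83 ± 5.14 CPM in whole-plant-chilled leaves, its highest group. The order depends on the measure: Spearman's rho put Zm00001d011845 (0.935) before Zm00001d005973 (0.917) for sut1, and r over the 48 libraries put Zm00001d008200 (0.965) before Zm00001d038936 (0.95) for sweet13a. For the 8 genes named, Spearman's rho over the groups was 0.917 to 0.959 and r over the libraries 0.877 to 0.965. They were chosen by r over the group means, and other genes may stand above them by the other measures.

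Among the 4 genes themselves, the exporters had higher values with each other than with sut1. Over the 16 groups r was 0.925 between sweet13a and sweet13b, 0.903 between sweet13a and sweet13c and 0.898 between sweet13b and sweet13c. Between sut1 and the exporters it was 0.364 for sweet13a, 0.313 for sweet13b and 0.464 for sweet13c.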

How the data were processed

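Counts per gene for 48 3′-end RNA libraries were used as deposited by the authors, as whole-number read counts with no normalisation. Reads were aligned with STAR and handled with edgeR, per the submitters' processing notes, with no version given there. How reads shared by similar genes were counted, and whether strand was used, is not given in the sources used here. The deposited CPM tables were not used.

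Genes were filtered with filterByExpr (minimum count 10), scaled by TMM and tested with edgeR 4.0.16 in R 4.3.3, by the robust quasi-likelihood test with Benjamini-Hochberg adjustment over all genes tested and a threshold of 0.05. Each tissue's 12 libraries were fitted together for 12 comparisons with control and 12 between chilling conditions. A fit of all 48 libraries gave 6 comparisons of control tissues and 6 of changes between tissues. SE is the log2 fold change divided by the square root of its F value. Comparisons in a tissue share control libraries. The procedure was tested on simulated counts in which 100 genes were changed by each size, among 14947 to 20533 genes. Of changes of 1 on the log2 scale, it recovered 44% with the libraries of leaf whole-plant over control, 24% with those of root shoot-only over control and 42% with those of control leaf over root. Of changes of 2 it recovered 88%, 83% and 73% in the same order. In the real data 30.1%, 22.3% and 64.7% of genes were called in these comparisons. The adjustment is looser when more genes change, so the simulated rates are not the power of the real comparisons. A difference that did not pass is no evidence of no change. Total counts of 3449880 to 8633854 per library limit the precision for genes with few counts. The least different pair of replicates still differed beyond counting noise (chi-square per degree of freedom 3.73), so none was taken for a repeat deposit.

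The 4 genes and the lists were chosen with earlier results of these data known. The genes named beside them are the 2 with the highest Pearson's r to each. A list of 58 other symbols of sugar transport and metabolism could not be used: a RefSeq-based table of names (assembly Zm-B73-REFERENCE-NAM-5.0) holds 20 of them but pairs 0 of 44146 nuclear identifiers of the files.

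Alternatives were DESeq2 1.42.0, library size alone, median-of-ratios size factors, no filter on low counts, only the libraries compared, all 48 libraries in 1 fit, a replicate block, and leaving out each library. Deviations of same-numbered libraries from their group means were correlated to see whether numbers pair them. All 3 correlations were over 0.1 in 4 of 24 comparisons: in root root-only chilling against control, whole-plant against shoot-only and whole-plant against root-only chilling, and in bottom crown whole-plant against root-only chilling. The range over all was -0.301 to 0.401. The labels give no shared batch or day for a number. These correlations were taken within tissues only. Same-numbered libraries of different tissues were not checked for pairing. They may come from the same plants, which the labels do not say, and the comparisons between tissues treated them as independent.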

Additional observations from a re-analysis of the deposited data

Results flagged for a closer look

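The change from control differed between leaf and root, by the test of the difference itself, in 6 cases. For sweet13b the leaf change was lower than the root change by -2.22 under whole-plant chilling (log2 scale, edgeR's quasi-likelihood test, adjusted p = 0.00311), by -1.75 under shoot-only chilling (adjusted p = 0.0143) and by -1.36 under root-only chilling (adjusted p = 0.035). For sweet13c the difference was -3.00 under shoot-only (adjusted p = 0.000511) and -1.92 under root-only chilling (adjusted p = 0.0196). For sut1 it was -1.15 under whole-plant chilling (adjusted p = 0.0227). Of the 6, sweet13b under whole-plant and sweet13c under shoot-only chilling held without any 1 library. The others ended without at least 1: sut1 without 7 of 12 libraries (-1.10 to -0.93), sweet13b under root-only chilling without 5 (-1.27 to -0.95), sweet13c under root-only chilling without 4 (-1.72 to -1.35), and sweet13b under shoot-only chilling without leaf control replicate 2 (-1.46). With library size alone, sut1 (-0.89) and both root-only differences (-1.01 for sweet13b, -1.52 for sweet13c) were lost. Differences in temperature between leaf and root under local chilling cannot be told apart from differences between the organs, and under whole-plant chilling both were at 4 °C.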

How the results depend on the processing

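The log2 fold changes of 144 results for the 4 genes and the exporter sum were recomputed 1963 times. None of the 61 calls changed direction, but only 31 of them passed under every alternative run. Called or not, 101 results kept their side of the threshold under every alternative. Of the results not called, 27 changed sign under some alternative. Of 55 calls of single genes, 32 held without any 1 library and 23 ended without at least 1. The cause of each change was not tested. With DESeq2, the call lost was the exporter sum top crown whole-plant over control (-1.10). With DESeq2, the calls gained were the exporter sum bottom crown shoot-only over control (1.45) and sweet13a bottom crown shoot-only over control (1.46). With all 48 libraries in 1 fit, the calls lost were the exporter sum leaf root-only over control (0.80), the exporter sum leaf shoot-only over control (-0.94), the exporter sum leaf whole-plant over control (-0.83) and the exporter sum top crown whole-plant over control (-1.08). Also lost were sut1 bottom crown shoot-only over root-only (-0.48), sut1 bottom crown whole-plant over shoot-only (0.46), sut1 leaf shoot-only over root-only (-0.47) and sweet13a leaf shoot-only over control (-0.74). Also lost were sweet13c bottom crown shoot-only over root-only (1.67) and sweet13c leaf root-only over control (-0.93). With all 48 libraries in 1 fit, the calls gained were the exporter sum bottom crown shoot-only over control (1.45), sut1 root whole-plant over shoot-only (0.77), sweet13a bottom crown shoot-only over control (1.46) and sweet13c root whole-plant over root-only (-1.43). With library size alone, the calls lost were sut1 whole-plant change in leaf minus root (-0.89), sweet13b leaf over root (0.036), sweet13b root-only change in leaf minus root (-1.01) and sweet13c leaf over root (1.02). Also lost were sweet13c leaf root-only over control (-0.46), sweet13c root shoot-only over root-only (1.16) and sweet13c root-only change in leaf minus root (-1.52). With library size alone, the calls gained were sut1 leaf whole-plant over root-only (-0.82), sweet13a leaf whole-plant over control (-0.66) and sweet13b root whole-plant over root-only (-1.07). With median-of-ratios size factors, the call lost was the exporter sum top crown whole-plant over control (-1.08). With no filter on low counts, the calls lost were the exporter sum bottom crown root-only over control (1.54), the exporter sum bottom crown whole-plant over control (1.60), sweet13a bottom crown whole-plant over control (1.76) and sweet13b root-only change in leaf minus root (-1.27). Also lost were sweet13c root shoot-only over root-only (1.44) and sweet13c root-only change in leaf minus root (-1.84). With only the libraries compared, the calls lost were the exporter sum leaf whole-plant over control (-0.72), sut1 bottom crown whole-plant over shoot-only (0.46), sut1 whole-plant change in leaf minus root (-1.06) and sweet13b bottom crown whole-plant over shoot-only (-1.59). Also lost were sweet13c bottom crown shoot-only over root-only (1.68) and sweet13c root-only change in leaf minus root (-1.92). With only the libraries compared, the calls gained were the exporter sum bottom crown shoot-only over control (1.43), sut1 leaf root-only over control (-0.46), sweet13a bottom crown shoot-only over control (1.44) and sweet13b root whole-plant over shoot-only (0.72). With a replicate block, the calls lost were the exporter sum top crown whole-plant over control (-1.13) and sweet13c leaf root-only over control (-0.89). With a replicate block, the calls gained were the exporter sum bottom crown shoot-only over control (1.51), sut1 leaf root-only over control (-0.43), sweet13a bottom crown shoot-only over control (1.51) and sweet13b root root-only over control (0.91). Also gained was sweet13b root whole-plant over shoot-only (0.71).

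The replicate block changed no other call. In root it added calls for sweet13b root-only over control and whole-plant over shoot-only. Same-numbered libraries were weakly correlated there, at 0.101 to 0.237 and 0.154 to 0.213, and the labels give no shared batch for a number.

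With each library left out in turn, the log2 fold change of results whose call moved had these ranges. The range was 0.83 to 1.84 for the exporter sum bottom crown root-only over control, 1.21 to 1.73 for the exporter sum bottom crown shoot-only over control, 1.20 to 1.86 for the exporter sum bottom crown whole-plant over control and -1.06 to -0.64 for the exporter sum leaf shoot-only over control. It was -1.01 to -0.49 for the exporter sum leaf whole-plant over control, -1.44 to -0.85 for the exporter sum top crown whole-plant over control, -0.63 to -0.39 for sut1 bottom crown shoot-only over root-only and 0.34 to 0.59 for sut1 bottom crown whole-plant over shoot-only. Values ran from -0.53 to -0.33 for sut1 leaf root-only over control, -0.58 to -0.36 for sut1 leaf shoot-only over root-only, -0.80 to -0.46 for sut1 leaf whole-plant over control and 0.53 to 1.01 for sut1 root whole-plant over shoot-only. The range was -1.17 to -0.70 for sut1 top crown shoot-only over control, -0.82 to -0.35 for sut1 top crown shoot-only over root-only, -1.36 to -0.93 for sut1 whole-plant change in leaf minus root and 1.08 to 2.10 for sweet13a bottom crown root-only over control. It was 1.36 to 2.01 for sweet13a bottom crown whole-plant over control, -1.37 to -0.72 for sweet13a leaf over root, -0.87 to -0.48 for sweet13a leaf shoot-only over control and -0.78 to -0.20 for sweet13a leaf whole-plant over control. Values ran from -1.58 to -0.59 for sweet13a top crown whole-plant over root-only, 1.63 to 2.32 for sweet13b bottom crown shoot-only over control, 1.66 to 2.35 for sweet13b bottom crown shoot-only over root-only and -2.01 to -1.09 for sweet13b bottom crown whole-plant over shoot-only. The range was 0.84 to 1.46 for sweet13b leaf over root, 0.51 to 1.28 for sweet13b root root-only over control, -1.74 to -0.95 for sweet13b root-only change in leaf minus root and -2.14 to -1.46 for sweet13b shoot-only change in leaf minus root. It was -2.17 to -0.70 for sweet13c bottom crown root-only over control, 1.16 to 2.62 for sweet13c bottom crown shoot-only over root-only, 1.74 to 3.20 for sweet13c bottom crown whole-plant over root-only and -4.04 to -2.40 for sweet13c top over bottom crown. Values ran from -1.14 to -0.55 for sweet13c leaf root-only over control, -1.50 to -0.85 for sweet13c leaf whole-plant over control, 1.06 to 1.96 for sweet13c root shoot-only over root-only and -2.26 to -1.35 for sweet13c root-only change in leaf minus root.

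Counts of genes called moved by over 1.5 times in these cases. In leaf whole-plant over shoot-only, 11 genes became 96 with no filter, 21 with DESeq2, 0 with only the libraries compared and 1 to 6 without 1 of 4 libraries. In root whole-plant over root-only, 2640 became 4335 with library size alone, 4509 with all 48 libraries, 1605 with only those compared and 1665 without root-only replicate 2. In root shoot-only over control, 4196 became 6348 with all 48 libraries and 2466 or 2633 without control replicate 1 or shoot-only replicate 3. In root root-only over control, 1435 became 2516 with all 48 libraries and 852, 890 or 914 without control replicate 3, root-only replicate 1 or root-only replicate 2. Root whole-plant over control gave 3666, against 5515, with only the libraries compared, and the whole-plant change in leaf minus root to 1280, against 2774. In top crown, leaving out shoot-only replicate 3 gave 2689, against 4235, for shoot-only over control, 2702, against 4110, for shoot-only over root-only and 3047, against 4576, for whole-plant over shoot-only. Bottom crown shoot-only over control gave 3262, against 4912, without control replicate 3. For changes in top minus bottom crown, 66 genes under whole-plant chilling became 167 with DESeq2, 181 with only the libraries compared and 23 to 41 without 1 of 9 libraries. Under shoot-only chilling 5 became 19, 30 and 2 to 8 without 1 of 4, and under root-only chilling 351 became 576, 659 and 189 to 219 without 1 of 5. Library size alone also moved the split of calls: 71.6% were higher in leaf root-only over control, against 48.3% by TMM, 23.8% against 63.3% in root whole-plant over root-only, and 19.6% against 40.5% in control leaf over root. Depth limits sweet13b and sweet13c in crown, where libraries held as few as 0 counts.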
